A study of Mus musculus with 12 samples.

Results

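The 32 genes described here encode the proteins that bring fatty acids into heart muscle and burn them in mitochondria, together with a few enzymes that act on the same acyl-CoA pool. They were chosen by name, with earlier results of these data known. All 32 were found among the 51911 features of the count tables. RNA came from mouse hearts of 2 genotypes, Ptcd1 knockout (KO) and wild type (WT). Ptcd1 encodes a pentatricopeptide repeat protein of mitochondria that acts on mitochondrial RNA. Each genotype gave 3 libraries of untreated RNA, named control in the labels, and 3 libraries of RNA treated with CMC, a carbodiimide that adds to pseudouridine in RNA. The 12 libraries thus form 4 groups, and cytoplasmic ribosomal RNA had been depleted from all of them. The labels do not state how the allele was made, which cells lost the gene, or the strain, age and sex of the mice. The labels do not say whether each library came from a separate mouse, so the p-values measure the spread between these libraries, which may be technical.

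Heart muscle draws most of its fuel from fatty acids. Lipoprotein lipase frees them from circulating triglyceride, carriers bring them into the cell, and acyl-CoA synthetases activate them. The carnitine shuttle then moves the long chains into the matrix, where rounds of dehydrogenation, hydration, a further dehydrogenation and thiolysis shorten them, and the electrons pass through electron transfer flavoprotein to the respiratory chain.

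Total depth was 10389398 to 12462093 counts per library, of which 70.5% to 75.4% lay on mitochondrial genes. Levels are therefore given as CPM of the nuclear counts alone, scaled by TMM, and 2683284 to 3187748 nuclear counts per library set their precision. Ptcd1 itself had 28, 17 and 19 counts in the untreated KO libraries against 78, 71 and 74 in WT, and 23, 21 and 20 against 79, 103 and 74 after CMC. Replicates of the untreated groups differed little more than counting error, with a chi-square per degree of freedom of 1.12 to 1.21. After CMC it was 1.20 to 1.36 among KO libraries and 1.39 between WT replicates 1 and 2. WT CMC replicate 3 stood apart from these at 2.08 and 2.43, so the values it moves most are also given without it.

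In untreated hearts the pathway was lower in KO. Of the 32 genes, 28 fell and 3 rose by edgeR's quasi-likelihood test at an adjusted p under 0.05, while Cpt1b did not pass. The background was high, since 57.8% of the 12195 nuclear genes tested were called, 28.7% lower and 29.1% higher. The median log2 fold change (KO over WT) of the members was -0.70, and that of all genes tested was -0.004. In 28 members every KO library lay below every WT library, and in 3 every KO library lay above, against 30.5% and 30.8% of all genes tested. Together the members took 1.42%, 1.46% and 1.43% of the nuclear counts in the KO libraries and 2.20%, 2.13% and 2.17% in WT, and after CMC 1.51%, 1.496% and 1.43% against 2.08%, 2.03% and 2.15%. The KO shares lay below the WT shares in both conditions.

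Markers of heart muscle cells moved with these genes. All 7 cardiomyocyte markers (Myh6, Actc1, Tnnt2, Tnni3, Ryr2, Myl2 and Mb) fell in untreated KO hearts, and their median log2 fold change was -1.04. Their summed level was 38327 to 38449 CPM in KO and 81990.2 to 84672 CPM in WT, and none was at 0 in any group. The summed level of 6 macrophage markers was 206 to 223 CPM in KO and 158 to 165 CPM in WT, that of 6 adipocyte markers 44.9 to 52.4 against 77.0 to 86.8 CPM, and that of 5 mural cell markers 1392 to 1416 against 1778 to 1858 CPM. For 7 endothelial markers it was 1162 to 1211 CPM in KO and 1226 to 1305 CPM in WT, and for 6 fibroblast markers 1154 to 1166 against 1335 to 1401 CPM. These sums follow the most abundant markers: by gene, 2 fibroblast markers fell and 2 rose of 5 tested (median log2 -0.005), and 4 endothelial markers fell and 1 rose of 7. In whole hearts, fewer cells of a type and less RNA per cell cannot be told apart, and the part of these markers in the results on the pathway was not tested.

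**Figure D1:**
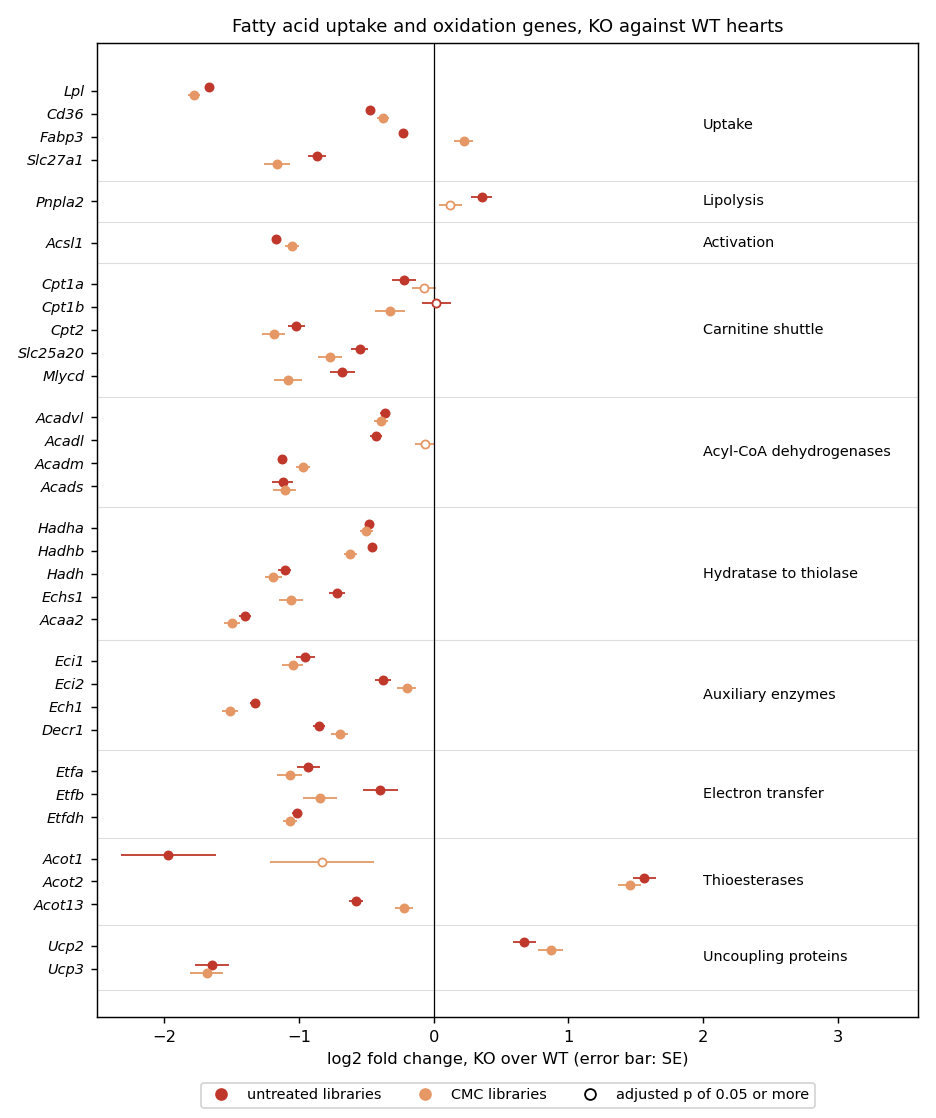
Log2 fold change of each of the 32 genes, KO over WT, by role, with SE, in untreated libraries (red) and CMC libraries (orange). Filled points passed the test; the untreated values run from -1.97 for Acot1 to 1.56 for Acot2, and most lie left of 0.

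Of the 4 uptake genes, all fell in untreated KO hearts, by unequal amounts. Lpl (chr8:68880491-68907448, plus strand, mm10), the lipase that frees fatty acids from lipoproteins at the capillary wall, had 1146, 1156 and 1172 CPM in KO and 3717, 3625 and 3707 CPM in WT. The groups lay far apart, and Lpl fell 3.17-fold, a log2 fold change of -1.67 (SE 0.03, adjusted p = 6.33e-153). Slc27a1, a fatty acid transport protein that couples uptake to activation, had 81.1, 78.1 and 82.8 CPM against 140.3, 153 and 149.8 CPM and fell by 1.82-fold (log2 -0.87, SE 0.07). Cd36, the scavenger receptor that takes up long-chain fatty acids, ranged from 1516 to 1551 CPM in KO and from 2043 to 2237 CPM in WT, a log2 fold change of -0.47 (SE 0.03, adjusted p = 1.59e-42). Fabp3, the heart-type fatty acid binding protein of the cytosol, changed least of the 4, from 4670.3 ± 96.9 CPM in WT to 3973 ± 134 CPM in KO (SD, n = 3), a log2 fold change of -0.23. The spacing between groups was still wider than the spread within them for all 4 genes. A processed pseudogene, Fabp3-ps1, shares 24.3% of the 75-base words of Fabp3 on the same strand, so its counts are uncertain to that extent.

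Pnpla2, adipose triglyceride lipase, which starts the breakdown of stored triglyceride, went the other way. Its level was 97.8, 102 and 89.2 CPM in untreated KO libraries and 73.6, 76.2 and 76.3 CPM in WT, with no overlap, and it rose by 0.35 on the log2 scale (SE 0.08, adjusted p = 2.14e-05). Acsl1 (chr8:46471037-46536051, plus strand), the main long-chain acyl-CoA synthetase of heart, had 687, 659.9 and 672 CPM in KO and 1509, 1520.1 and 1519 CPM in WT. It fell 2.25-fold, a log2 fold change of -1.17 (SE 0.03, adjusted p = 1.53e-103).

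Of the 5 carnitine shuttle genes 4 fell in untreated KO hearts. Cpt1b, the muscle form of carnitine palmitoyltransferase 1 on the outer membrane, had 48.0, 41.0 and 46.0 CPM in KO and 46.8, 44.3 and 42.5 CPM in WT, and the groups overlapped (log2 0.02, SE 0.10, adjusted p = 0.886). Its annotated exons share 77.1% of their 75-base words with Gm44502, an overlapping protein-coding locus on the same strand, so its counts could have been split or left out. Cpt1a, the form known from liver, had 56.3, 63.3 and 58.2 CPM in KO and 66.3, 67.7 and 73.5 CPM in WT, a log2 fold change of -0.22 (SE 0.09, adjusted p = 0.0236). That call was lost without KO replicate 1 (-0.18), KO replicate 3 (-0.205) or WT replicate 3 (-0.18), and by DESeq2 (-0.22, adjusted p = 0.133), without TMM (-0.10) and with no filter (-0.20).

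Cpt2, which hands the chain back to coenzyme A inside the inner membrane, gave 88.5, 96.8 and 89.5 CPM in KO against 187, 182 and 188 CPM in WT. Its level thus fell 2.03-fold (log2 -1.02, SE 0.06, adjusted p = 1.04e-38), the steepest change of the 5 shuttle genes. Slc25a20, the carnitine-acylcarnitine carrier of the inner membrane, ranged over 107 to 121 CPM in KO and 158 to 173 CPM in WT (log2 -0.55). Mlycd, malonyl-CoA decarboxylase, which removes the inhibitor of the entry step, ranged over 39.4 to 44.1 and 64.5 to 71.9 CPM (log2 -0.68). Neither gene had a KO library that reached the lowest WT library.

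**Figure D2:**
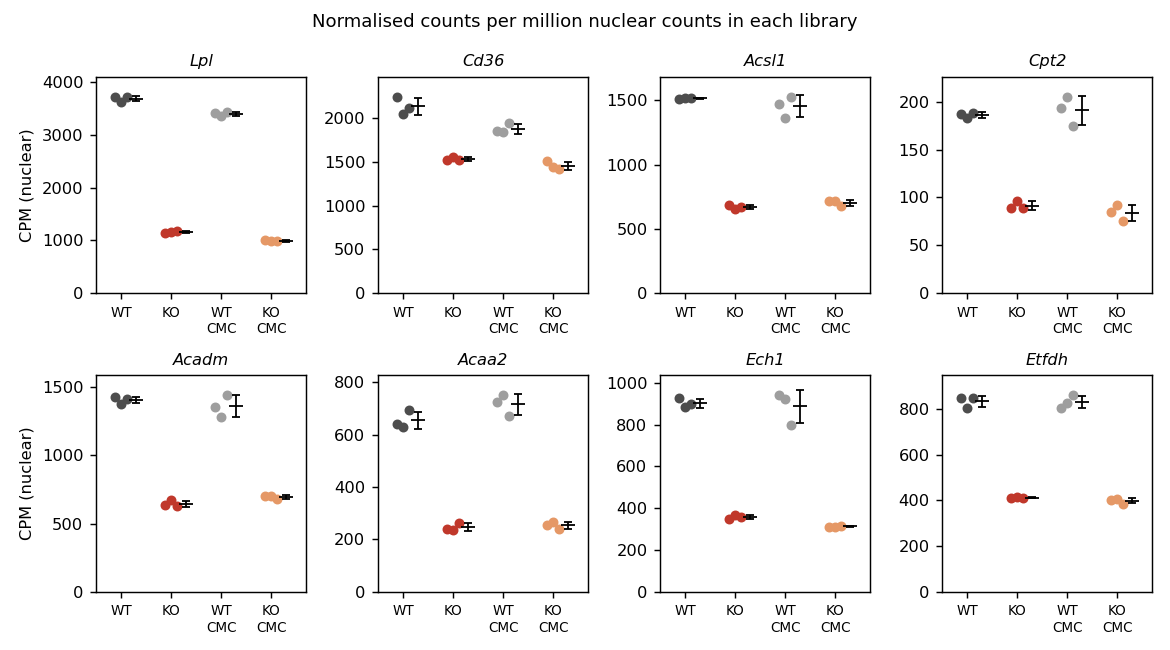
CPM (TMM-scaled, over nuclear counts) of 8 members in each of the 12 libraries; points are libraries and the black marks the mean and SD of 3. In all 8, every KO point lies below every WT point, untreated and after CMC.

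All 4 acyl-CoA dehydrogenases, which open each round of oxidation for a given chain length, fell in untreated KO hearts. Acadm (chr3:153922357-153944632, minus strand), for medium chains, had 636, 671 and 626 CPM in KO and 1427, 1379 and 1414 CPM in WT, a log2 fold change of -1.12 (SE 0.03, adjusted p = 3.27e-98). Acads, for short chains, was less abundant and moved by the same amount, with 53.5, 52.6 and 49.9 CPM against 109.9, 107 and 123 CPM (log2 -1.12, SE 0.08). The enzymes for longer chains changed less. Acadvl, for very long chains, had 669, 731 and 723 CPM in KO and 912, 891 and 935 CPM in WT (log2 -0.36, SE 0.03), and Acadl, for long chains, had 295, 351 and 313 and 434, 428 and 430.2 CPM (log2 -0.43, SE 0.04). Of the exon bases of Acadvl, 42.9% overlap Dvl2 on the opposite strand, and 19.5% of its 75-base words also occur in the transcripts of Dvl2. No source used here states the strand setting of the counting, so reads of that stretch cannot be told apart.

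Between hydratase and thiolase all 5 genes fell as well. Acaa2, the thiolase for medium and short chains, was the steepest, at 241, 237 and 263 CPM in KO and 639.9, 631 and 693 CPM in WT. No KO library came near a WT library, and the fall was 2.64-fold (log2 -1.40, SE 0.04, adjusted p = 4.96e-94). Hadh, the matrix hydroxyacyl-CoA dehydrogenase, ranged over 171 to 175 CPM in KO and 357 to 392 CPM in WT (log2 -1.11), and Echs1, the short-chain enoyl-CoA hydratase, over 116 to 123 and 194 to 199.9 CPM (log2 -0.72). Hadha and Hadhb, the subunits of the trifunctional protein that handles long chains at the inner membrane, changed less. Hadha had 1243, 1315 and 1253 CPM in KO and 1809.7, 1723 and 1801 CPM in WT (log2 -0.48, SE 0.03). Hadhb had 767, 785 and 768 CPM against 1117, 1019 and 1059 CPM (log2 -0.46, SE 0.03), and 16.7% of its 75-base words occur in other genes on the same strand, mostly Gm13910.

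Hadha and Hadhb lie head to head on chromosome 5 with 85 bases between their annotated starts, so the upstream bases of Hadhb include those around the start of Hadha. The 250 bases before the RefSeq start of Hadhb (chr5:30155003-30155252, plus strand, GRCm38.p6) are shown because they cover the gap between 2 genes with like changes. Most of the window lies within annotated Hadha, whose start on the minus strand is at 30155162. None of the searched motifs described further down occurs in the window.
Hadhb upstream: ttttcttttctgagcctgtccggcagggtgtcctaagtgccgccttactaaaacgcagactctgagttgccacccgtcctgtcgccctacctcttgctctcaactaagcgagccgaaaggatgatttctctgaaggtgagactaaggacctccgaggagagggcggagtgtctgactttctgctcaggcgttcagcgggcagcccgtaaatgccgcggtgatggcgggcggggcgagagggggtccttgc

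The cycle enzymes were set by chain length, a grouping made after the values were seen and given without a test. Those for long chains at the inner membrane (Acadvl, Hadha and Hadhb) had log2 fold changes of -0.36 to -0.48. The 5 matrix enzymes for medium and short chains (Acadm, Acads, Echs1, Hadh and Acaa2) had -0.72 to -1.40. After CMC the ranges were -0.39 to -0.62 and -0.97 to -1.50, so they did not overlap in either condition. This holds for the cycle enzymes as grouped. The shuttle genes Cpt2 (-1.02 untreated, -1.19 after CMC) and Slc25a20 (-0.55 and -0.77) also serve long chains at the inner membrane. Cpt2 lay within the range of the matrix enzymes. Acadl, at -0.43 untreated and -0.06 after CMC, lay with the long-chain enzymes or nearer to 0.

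The 4 auxiliary enzymes, which deal with double bonds of unsaturated chains, all fell. Ech1 (chr7:28825217-28832247, plus strand), a dienoyl-CoA isomerase, had 347, 369 and 357 CPM in untreated KO libraries and 926, 882 and 897 CPM in WT, a 2.52-fold fall (log2 -1.33, SE 0.04, adjusted p = 1.09e-100). Eci1, an enoyl-CoA isomerase, ranged over 67.5 to 77.7 and 139.6 to 146 CPM (log2 -0.95), and Decr1, the mitochondrial dienoyl-CoA reductase, over 262 to 267 and 455 to 495 CPM (log2 -0.85). Eci2, whose product is found in mitochondria and peroxisomes, changed least, from 175 ± 2.77 CPM in WT to 134 ± 1.49 CPM in KO (SD, n = 3; log2 -0.38). In each of the 4 the KO and WT libraries did not overlap.

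Electrons from the dehydrogenases pass to electron transfer flavoprotein, made of the Etfa and Etfb products, and on to its oxidoreductase, the product of Etfdh. Etfdh had 409.8, 413 and 409 CPM in KO and 847, 807 and 849 CPM in WT and fell 2.03-fold (log2 -1.02, SE 0.04, adjusted p = 3.12e-78). Etfa was lower by a like amount, at 41.8, 52.0 and 49.9 CPM against 95.2, 84.0 and 94.8 CPM (log2 -0.93, SE 0.09). Etfb had 25.4, 26.8 and 22.4 CPM in KO and 32.8, 35.8 and 30.0 CPM in WT, closer together (log2 -0.40, SE 0.13, adjusted p = 0.00556). This call was lost by DESeq2 (adjusted p = 0.0611) and without TMM (adjusted p = 0.0562), and Gm45233 overlaps 53.0% of the exon bases of Etfb on the same strand.

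The thioesterases, which release free fatty acid from acyl-CoA, held the largest estimated changes of the 32 genes in both directions in untreated hearts. Acot2 (chr12:83987861-83993873, plus strand), the mitochondrial form, had 125, 107 and 121 CPM in KO and 43.6, 39.0 and 37.3 CPM in WT. Every KO library lay above every WT library, and Acot2 rose 2.96-fold (log2 1.56, SE 0.09, adjusted p = 1.44e-46). Its cytosolic neighbour Acot1 had only 4, 5 and 9 counts in KO and 25, 20 and 20 counts in WT, or 1.24, 1.61 and 2.88 against 8.72, 7.09 and 6.97 CPM. It fell 3.92-fold (log2 -1.97, SE 0.35, adjusted p = 2.09e-07), from few counts. That SE spans the value of Lpl (-1.67), so the rank of Acot1 as the largest fall is uncertain. After CMC the largest fall of the 32 genes was that of Lpl (log2 -1.78). Acot13, a small thioesterase that also sits at mitochondria, ranged over 158 to 167 and 225 to 254 CPM and fell (log2 -0.58, SE 0.05).

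Acot2 and Acot1 lie on the plus strand of chromosome 12 with 15616 bases between them, and their coding sequences are 85.5% identical. On the same strand, Acot1 holds 20.5% of the 75-base words of Acot2 and Acot2 holds 11.2% of those of Acot1, so counts of each are uncertain. Upstream the genes are less alike, at 45.2% identity in a global alignment of the 250 bases before each RefSeq start. Both windows (Acot2 chr12:83987611-83987860, Acot1 chr12:84009252-84009501, plus strand, GRCm38.p6) are shown because neighbours with like coding sequence moved in opposite directions; they hold none of the searched motifs.
Acot2 upstream: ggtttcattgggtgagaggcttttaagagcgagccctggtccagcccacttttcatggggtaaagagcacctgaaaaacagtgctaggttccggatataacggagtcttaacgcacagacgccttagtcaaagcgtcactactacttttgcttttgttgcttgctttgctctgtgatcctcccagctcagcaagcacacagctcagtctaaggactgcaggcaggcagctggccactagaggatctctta
Acot1 upstream: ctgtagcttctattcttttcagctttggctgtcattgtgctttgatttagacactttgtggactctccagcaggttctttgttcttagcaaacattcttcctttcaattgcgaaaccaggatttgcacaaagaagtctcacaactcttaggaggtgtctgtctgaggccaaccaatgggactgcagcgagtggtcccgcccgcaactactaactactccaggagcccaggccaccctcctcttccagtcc
Among other genes of the family, looked at after these values were seen, Acot6 rose (13.6 ± 3.37 CPM in KO and 7.01 ± 0.975 CPM in WT, SD, n = 3; log2 0.96, SE 0.23, adjusted p = 8.55e-05), and Acot3, Acot4 and Acot5 had too few counts to be tested.

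The uncoupling proteins also split. Ucp3, the form of muscle, had 15.8, 20.3 and 17.9 CPM in untreated KO libraries and 62.1, 54.2 and 53.3 CPM in WT and fell 3.13-fold (log2 -1.65, SE 0.12, adjusted p = 5.67e-30). Ucp2, found in many tissues and in macrophages, had 79.2, 75.5 and 84.1 CPM in KO and 47.1, 51.7 and 51.2 CPM in WT and rose by 0.67 on the log2 scale (SE 0.09, adjusted p = 3.27e-12). Beside the rise of Ucp2 stand the macrophage markers, of which 3 of the 5 tested rose (median log2 0.53); their part in it was not tested. The 2 genes lie in tandem on chromosome 7 with 6904 bases between them, and their coding sequences are 74.0% identical.

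The 250 bases before each RefSeq start (Ucp3 chr7:100472741-100472990, Ucp2 chr7:100493108-100493357, plus strand, GRCm38.p6) follow, shown as those of a tandem pair that moved in opposite directions. Capitals mark AGGTCA, the hexamer bound by PPAR and related nuclear receptors, found at positions -149 and -44 from the start of Ucp3 and not in the Ucp2 window.
Ucp3 upstream: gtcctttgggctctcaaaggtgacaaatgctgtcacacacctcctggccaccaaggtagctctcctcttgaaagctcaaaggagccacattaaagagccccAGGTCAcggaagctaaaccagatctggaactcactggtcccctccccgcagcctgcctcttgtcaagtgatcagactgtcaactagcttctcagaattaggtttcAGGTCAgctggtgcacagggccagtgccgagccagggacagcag
Ucp2 upstream: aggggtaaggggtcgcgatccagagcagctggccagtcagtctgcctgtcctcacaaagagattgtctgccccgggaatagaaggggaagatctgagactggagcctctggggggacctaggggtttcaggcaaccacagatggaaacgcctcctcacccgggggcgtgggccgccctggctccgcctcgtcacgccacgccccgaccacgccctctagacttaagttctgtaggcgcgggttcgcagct

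Such windows were at hand for 27 of the 32 members, and 4 motifs were searched in them on both strands. AGGTCA occurred in 6 of the 27 (22.2%: Cd36, Cpt1a, Acadvl, Acadm, Echs1 and Ucp3). It occurred in 15.8% of all genes with a window and 12.8% of those tested. TGATGNAAN, the element bound by CHOP and ATF4, occurred in 2 members (Fabp3 and Echs1, 7.41%), against 3.89% of all genes and 2.45% of those tested. TCAAGGTCA, an element of estrogen-related receptors, and AGGTCANAGGTCA, a direct repeat of the hexamer, were found in none, and in 0.422% and 0.041% of all genes; both contain the hexamer. The matches are letters in a short window and say nothing of binding. The 6 genes with the hexamer had log2 fold changes from -1.65 to -0.22 in untreated hearts, within the range of the others.

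Shares within 3 pairs of related genes were taken per length, as the level per kilobase of exon. Acot1 made up 0.550%, 0.837% and 1.31% of Acot1 and Acot2 together in untreated KO libraries and 10.1%, 9.25% and 9.48% in WT. The share of Ucp2 in Ucp2 and Ucp3 was 69.2%, 62.5% and 67.8% in KO and 25.4%, 30.0% and 30.1% in WT. The exon lengths used were 6989 bases for Ucp2 and 3135 for Ucp3, so the size of these shares depends on the annotation. They do not settle which gene was more abundant in WT. With no division by length, the Ucp2 share was still higher in KO, by 34.6 percentage points. Both pairs separated the genotypes completely, by -8.70 and 38.0 percentage points, with an exact two-sided permutation p of 0.1, the smallest that 3 against 3 libraries allow. Cpt1a took 47.9%, 54.8% and 49.8% of Cpt1a and Cpt1b in KO and 52.6%, 54.5% and 57.6% in WT. These overlapped, and the difference of -4.08 percentage points had an exact permutation p of 0.3. Cpt1b shares 77.1% of its 75-base words with Gm44502, so its counts could be too low and the Cpt1a shares too high. The shares thus do not settle which Cpt1 form is more abundant. Adjusted over the 3 pairs, the exact permutation p-values were 0.15, 0.15 and 0.3.

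**Figure D3:**
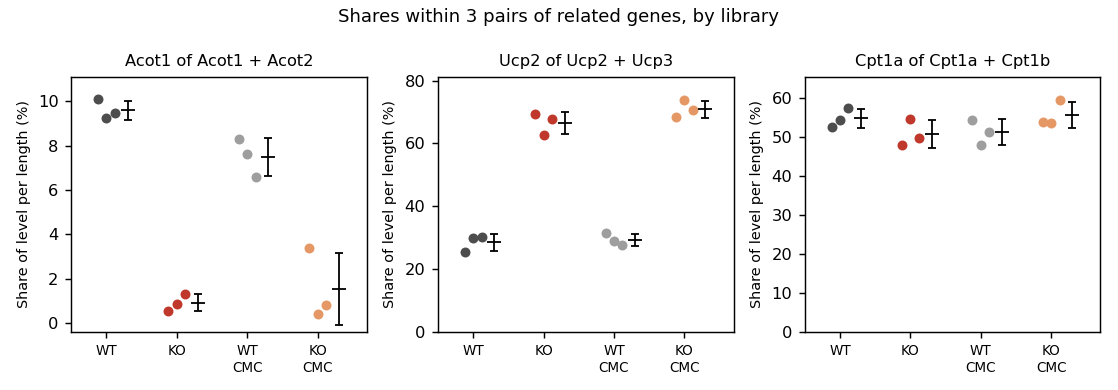
Share of the first gene in the summed level per length of each of 3 pairs, by library, in percent; black marks are the mean and SD of 3. The KO and WT libraries separate in the Acot and Ucp panels, and overlap in the Cpt1 panel, where Cpt1b counts could be too low. The SD of KO CMC in the Acot panel reaches past 0, as replicate 1 lies apart.

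Per length, levels among the members spanned a wide range, and Fabp3 led in every group. It had 5675 ± 118 RPKM (CPM per kilobase of exon) in untreated WT (SD, n = 3) and 4827 ± 162 in KO. Cd36 followed at 593 ± 27.5 and 426 ± 5.36 RPKM. Next in WT came Acaa2 at 432 ± 22.2 and Ech1 at 395 ± 9.64 RPKM, whose SDs leave a gap between them. In KO, Acaa2 had 163 ± 9.35 and Ech1 157 ± 4.80 RPKM, and both fell behind Acadvl at 264 ± 12.5 RPKM. Acot1 was lowest in both, at 1.94 ± 0.250 and 0.487 ± 0.219 RPKM. Lengths were those of all annotated exons, 10478 bases for Lpl and 3590 for Cd36, so the order between genes depends on the annotation. In untreated WT, Lpl had more CPM than Cd36 (3683 against 2130) and yet ranked 6 per length. The level of Acadvl is further uncertain through its exon overlap with Dvl2.

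**Figure D4:**
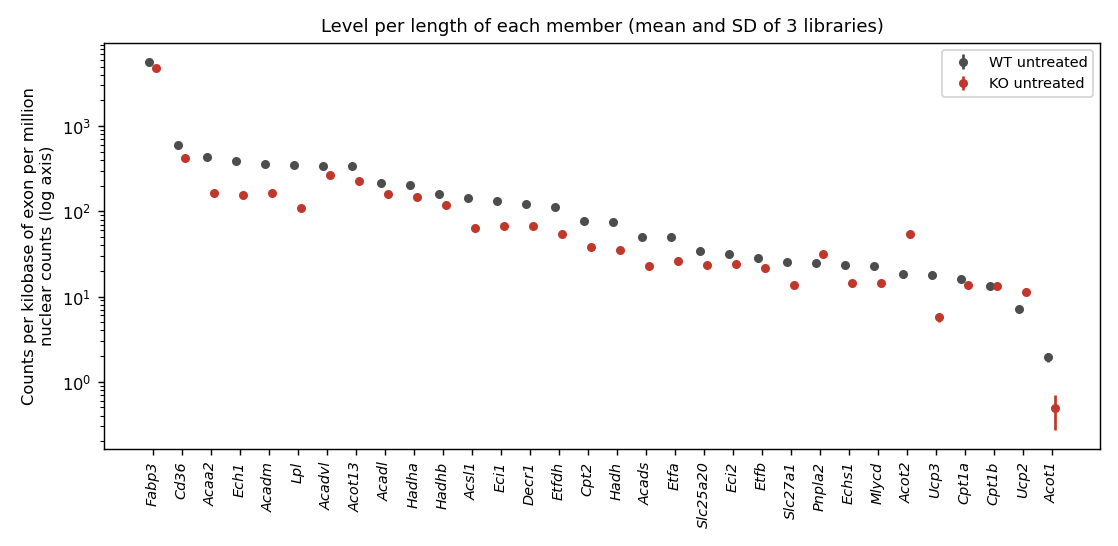
Level per length of each member in untreated hearts, in RPKM (CPM per kilobase of exon) on a log axis, ordered by WT; points are means and bars the SD of 3 libraries. Fabp3 stands far above the rest, and KO points lie clear above WT points for Acot2, Ucp2 and Pnpla2, while those of Cpt1b nearly coincide.

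The KO against WT comparison was repeated on the CMC libraries, which share no library with the untreated ones; the labels do not say whether they share hearts. There 25 members fell and 3 (Fabp3, Acot2 and Ucp2) rose, against a background of 54.0% called of 12198 genes, 26.8% lower and 27.2% higher, and the median log2 fold change of the members was -0.83 beside -0.01 for all genes tested. Groups did not overlap in 25 lower and 3 higher members (Acot2, Ucp2 and Pnpla2), against 29.1% and 29.7% of all genes. Without WT replicate 3 the counts were again 25 and 3. Lpl (1013, 983 and 984 CPM in KO, 3402, 3359.5 and 3421 CPM in WT) had a log2 fold change of -1.78, Acaa2 of -1.50 and Ech1 of -1.51. Acot2 rose again (153, 149 and 151 against 52.4, 52.0 and 60.2 CPM, log2 1.46), as did Ucp2 (log2 0.87), and Ucp3 fell (log2 -1.69). All 7 cardiomyocyte markers fell here too, with a summed level of 41768 to 42911 CPM in KO and 78501 to 87268 CPM in WT; their part was not tested.

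By role, the other uptake genes Cd36 (1503, 1439 and 1410.0 CPM in KO, 1850.2, 1832 and 1940.2 in WT) and Slc27a1 (61.4, 72.6 and 65.3 against 166, 149.5 and 128 CPM) were lower in KO after CMC too, with log2 fold changes of -0.38 and -1.17. Acsl1 had 715, 719 and 677 CPM in KO and 1473, 1363 and 1529 CPM in WT (log2 -1.05). In the shuttle Cpt2 had 84.4, 92.3 and 75.7 against 193, 205 and 174 CPM (log2 -1.19). Slc25a20 (log2 -0.77) and Mlycd (-1.08), the carrier and the decarboxylase, fell with it, and none of these genes had overlapping groups.

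In the oxidation cycle, Acadm (705, 706 and 682 against 1358, 1283 and 1442 CPM, log2 -0.97) and Acads (-1.11) again fell more than Acadvl (-0.39). Acaa2 had 255, 268 and 241 CPM in KO and 726, 751 and 670.5 CPM in WT, Hadh a log2 fold change of -1.19, Echs1 -1.06, Hadha -0.50 and Hadhb -0.62. Of the enzymes for unsaturated chains, Ech1 had 312, 309.6 and 316 against 941, 924 and 798 CPM, and Eci1 (-1.05) and Decr1 (-0.70) fell too. The electron transfer genes fell as well, with Etfa at -1.07, Etfb at -0.84 (21.1, 26.4 and 28.8 against 43.6, 47.2 and 44.7 CPM) and Etfdh at -1.07 on the log2 scale. Ucp3 had 19.8, 18.3 and 18.4 CPM in KO and 56.8, 56.4 and 68.8 CPM in WT, and Ucp2 94.9, 114 and 98.8 against 58.2, 51.0 and 58.9 CPM, again without overlap.

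Some members were called in 1 condition alone, or less firmly after CMC. Cpt1b passed after CMC, at 42.2, 41.6 and 34.6 CPM in KO and 45.3, 53.6 and 48.9 CPM in WT (log2 -0.32, adjusted p = 0.014), and lost the call without KO replicate 3 (-0.23), without WT replicate 2 (-0.25), by DESeq2 (adjusted p = 0.0928) and without TMM (adjusted p = 0.0608). Eci2 (log2 -0.20) and Acot13 (log2 -0.22) were lower in both conditions, and after CMC Eci2 was lost without KO replicate 1 (-0.21), KO replicate 3 (-0.165) or WT replicate 2 (-0.16), Acot13 without KO replicate 3 (-0.17). Both were lost without TMM (-0.125 and -0.14), and Eci2 by DESeq2 (-0.20) and with no filter (-0.18). Pnpla2 (log2 0.12, adjusted p = 0.224; 0.20 and called without TMM) and Cpt1a (log2 -0.07, adjusted p = 0.519) did not pass. Acot1 had 30, 3 and 6 counts in KO and 25, 24 and 22 in WT and did not pass (log2 -0.83, adjusted p = 0.0719). KO replicate 1 lay above the WT libraries, and without it the log2 fold change was -2.27 (adjusted p = 5.59e-05). Acot1 also passed with no filter (-0.80) and with all 12 libraries fitted together (-0.82).

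The difference between the KO effects of the 2 conditions was tested in all 12 libraries. It passed for 3 of the 32 members, Fabp3, Acadl and Acot13, all higher after CMC, beside 1.47% of the 12786 genes tested (0.391% lower, 1.08% higher). Fabp3 had 5108, 5147 and 4608 CPM in KO and 4006, 3554 and 5132 CPM in WT after CMC, so that KO lay below WT untreated (log2 -0.23) and above it after CMC (log2 0.22). The difference was 0.46 (SE 0.08, adjusted p = 0.000333). The CMC groups overlapped through WT replicate 3, without which the KO effect after CMC was 0.39 and the difference 0.625 (adjusted p = 1.05e-18). The rise of Fabp3 after CMC lost its call without KO replicate 2 (0.20), WT replicate 1 (0.19) or WT replicate 2 (0.12), and by DESeq2 (0.23, adjusted p = 0.283).

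Acadl had 377, 393 and 336 CPM in KO and 377, 334 and 440.2 CPM in WT after CMC, overlapping, for a KO effect of -0.06 (adjusted p = 0.491) and a difference of 0.375 (SE 0.09, adjusted p = 0.0134). That difference was lost without untreated KO replicate 1 (0.32), untreated KO replicate 3 (0.36), KO CMC replicate 2 (0.33) or WT CMC replicate 2 (0.285). Acot13 had 215, 209 and 193 CPM against 229, 231 and 255 CPM after CMC, and its difference was 0.37 (SE 0.09, adjusted p = 0.0129). It was lost without untreated WT replicate 2 (0.34), KO CMC replicate 1 (0.335) or WT CMC replicate 1 (0.34). Without WT CMC replicate 3 the difference was 0.485 for Acadl and 0.42 for Acot13. The count of members without that library rose from 3 to 10, and DESeq2 called 0 of 32, with adjusted p-values of 0.384 for Fabp3, 0.189 for Acadl and 0.133 for Acot13 and 7 members at an unadjusted p under 0.05 against 15 by edgeR.

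**Figure D5:**
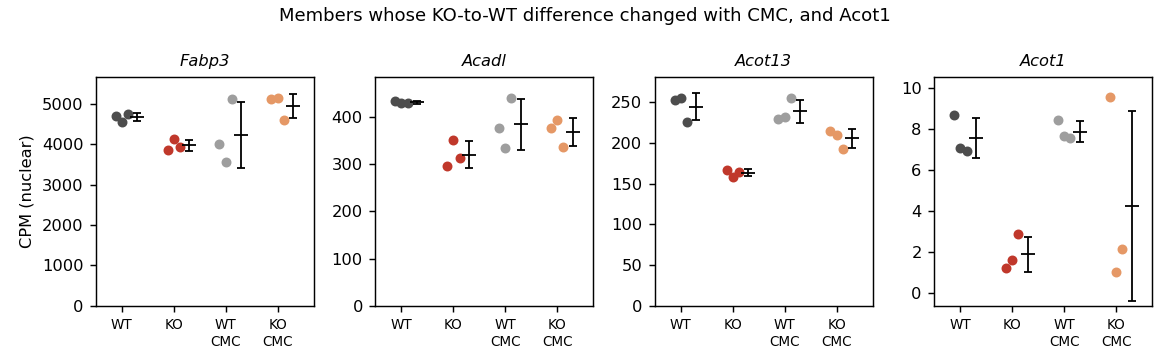
CPM of Fabp3, Acadl, Acot13 and Acot1 in each of the 12 libraries, with mean and SD of 3. In Fabp3 the KO libraries lie below WT untreated, and 2 of 3 WT CMC libraries lie below all KO CMC libraries. In Acot1, 1 KO CMC library lies above every WT library.

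CMC against untreated RNA gave small changes within each genotype. These comparisons reuse the libraries above, and treatment and library preparation cannot be told apart in them. In WT, 4 of the 32 members passed, beside 2.23% of 12099 genes tested (1.26% lower, 0.967% higher). Cd36 (log2 -0.19) and Hadhb (-0.21) were lower after CMC, and Etfb (0.46) and Acot2 (0.45) higher. Each of the 4 lost its call without untreated WT replicate 3. The count rested on single libraries, with 11 members without WT CMC replicate 3, 1 without untreated WT replicate 1, 0 without untreated WT replicate 3 (10 at an unadjusted p under 0.05 by edgeR) and 2 without WT CMC replicate 1. DESeq2 called 0, with 8 at an unadjusted p under 0.05 against 13 by edgeR.

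In KO, 11 of the 31 members tested passed, beside 12.1% of 11967 genes (5.36% lower, 6.77% higher); Acot1 had too few counts to be tested. Lpl (log2 -0.23), Slc27a1 (-0.29), Slc25a20 (-0.36), Acadvl (-0.12), Hadhb (-0.37) and Ech1 (-0.20) were lower after CMC. Fabp3 (0.31), Acadl (0.20), Acot2 (0.35), Acot13 (0.33) and Ucp2 (0.36) were higher. Slc27a1 lost its call without untreated replicate 3 (-0.27) or CMC replicate 1 (-0.23), Acadl without untreated replicate 1 (0.15) or CMC replicate 2 (0.16), and Acadvl without untreated replicate 2 (-0.09), untreated replicate 3 (-0.10), CMC replicate 2 (-0.13) or CMC replicate 3 (-0.08). All 3 were lost by DESeq2 (-0.29, 0.20 and -0.12), and Acadvl with no filter (-0.11) and with all 12 libraries fitted together (-0.11).

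Lists of other genes from neighbouring steps of lipid use are given beside the 28.7% lower and 29.1% higher among all genes tested in untreated hearts; no difference between lists was tested. Of 15 tested genes of uptake and activation beyond the members, 10 fell (66.7%) and 2 rose (13.3%), with a median log2 fold change of -0.42. The largest changes were in Vldlr, the very low density lipoprotein receptor (193 ± 4.55 CPM in KO, 667 ± 27.3 in WT, SD, n = 3; log2 -1.78), the acyl-CoA synthetases Acsl6 (-1.19) and Acsl3 (-0.75), and the fatty acid binding protein Fabp5 (-0.81). Gpihbp1, the endothelial anchor of lipoprotein lipase, which was picked after its value was seen, rose (log2 0.69, adjusted p = 7.5e-15) while Lpl fell. Of 11 tested genes of lipid droplets and triglyceride turnover, 5 fell (45.5%) and 3 rose (27.3%, near the share of all genes; median -0.16). Dgat2 (-1.13), Gpam (-0.69) and the droplet coat gene Plin3 (-0.70) fell, and Dgat1, which like Dgat2 makes triglyceride, rose (0.55).

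In peroxisomal oxidation 10 of 14 tested genes fell (71.4%) and the other 4 did not pass (median -0.43). Abcd2, a peroxisomal acyl-CoA carrier (-1.53), the bifunctional enzyme gene Ehhadh (-1.33), Scp2 (-0.97) and Phyh, for branched phytanic acid (-0.86), led them. Of 24 other mitochondrial acyl-CoA genes 16 fell (66.7%) and 4 rose (16.7%; median -0.72). Ivd, isovaleryl-CoA dehydrogenase of leucine breakdown, fell from 319.7 ± 6.06 to 69.7 ± 4.55 CPM (SD, n = 3; log2 -2.19, adjusted p = 1.02e-100). Echdc3 (-1.83), Acad12 (-1.81) and Gcdh, of lysine breakdown (-1.71), came next.

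Among 18 nuclear receptors and coregulators 8 fell (44.4%) and 5 rose (27.8%), closer to the shares of all genes (median -0.17). Lpin1 (-1.67), Ppargc1b (-0.92) and Rxrg (-0.88) fell and Ppard rose (0.82). Picked after their values were seen, Ppara, the receptor known to drive oxidation genes, fell (log2 -0.54, adjusted p = 2.38e-05), its coactivator Ppargc1a rose (0.53, adjusted p = 4.91e-22), and Esrra did not pass (0.14, adjusted p = 0.102). Of 13 genes that set malonyl-CoA or pyruvate use 5 fell (38.5%) and 3 rose (23.1%), again close to the shares of all genes (median -0.14). The AMP kinase subunit genes Prkab1 (-1.003) and Prkab2 (0.78) moved in opposite directions, and Pdk2, a pyruvate dehydrogenase kinase (-0.84), and Acacb, which makes malonyl-CoA at the outer membrane (-0.77), fell. After CMC 26.8% of all genes tested were lower and 27.2% higher. In the same order, the lists then stood at 10 lower and 2 higher of 15 tested, 6 and 2 of 11, and 10 and 1 of 14. Next came 16 and 3 of 24, 7 and 4 of 18 (38.9% and 22.2%), and 7 and 4 of 13 (53.8% and 30.8%). The share lower in the last list was thus above that of all genes after CMC.

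In the authors' deposited table for untreated libraries, 26 members were lower and 3 higher at an adjusted p under 0.05, and all 32 had the sign found here. Cpt1a, Cpt1b and Etfb did not pass in the authors' deposited table. The authors' deposited table of gene ontology lists 37 of 63 genes of fatty acid beta-oxidation as called (their p = 5.48e-11), and 8 of 10 of the acyl-CoA dehydrogenase form of that process (their p = 1.21e-05). Of the other terms read, fatty acid oxidation had 49 of 91 genes called (53.8%) and its regulation 19 of 33 (57.6%). Long-chain fatty acid transport had 19 of 53 (35.8%), the lowest share of the terms read, and it ranked last among them in the authors' test. The share of all genes called by the authors was not taken, so the counts of members and of terms lack that background. Members are themselves genes of fatty acid uptake and oxidation, so the counts are no separate evidence.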

How the data were processed

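Total RNA libraries of mouse heart gave raw read counts per gene, which the authors deposited in one table for untreated and another for CMC libraries. The submitters' processing notes name mm10 with featureCounts 1.5.1, HISAT2 2.0.5, DESeq2 1.16.1 and SAMtools 1.5; they state no role for each and no strand setting. The gene lengths, a base mean signal, log2 fold changes, standard errors and p-values of the authors' deposited tables were also read, with the gene numbers of their ontology table. Symbols came from GENCODE M21 (47697 of 51911 IDs matched exactly, 3985 without version).

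The 36 mitochondrial rows were removed before scaling, because they took most counts. The remaining genes passed filterByExpr and TMM scaling, and edgeR 4.0.16 tested them (quasi-likelihood, Benjamini-Hochberg over all nuclear genes tested, called at 0.05) in R 4.3.3, with 6 libraries per comparison and 12 for the difference of effects. In data simulated for the untreated comparison, with 12140 genes tested, 58% of genes changed by 0.5 on the log2 scale were recovered. Of those changed by 1, 92% were. For the difference of effects 28% and 69% were recovered, among 12610 genes. The simulation used a single common dispersion and few changed genes, drawn from all nuclear genes above a low mean count. Its rates therefore do not describe the members. The SE of a log2 fold change was taken as its absolute value divided by the square root of the quasi-likelihood F statistic. Upstream windows came from RefSeq (GRCm38.p6). Alternatives were DESeq2 1.42.0, 3 other scalings, no filter, a replicate block, all 12 libraries and leaving out each library. All 32 members are named; of each other list, up to 4 called genes with the largest change. One further list is not reported here. Members and lists were chosen with earlier results of these data known. Per-base tables of the mitochondrial genome were not used here.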

Additional observations from a re-analysis of the deposited data

Results flagged for a closer look

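For 3 genes the KO effect differed between CMC and untreated libraries by edgeR's test of the difference across all 12 libraries. The differences were 0.46 for Fabp3 (KO effect -0.23 untreated and 0.22 after CMC), 0.375 for Acadl (-0.43 and -0.06) and 0.37 for Acot13 (-0.58 and -0.22), on the log2 scale. DESeq2 called none of the 3 (adjusted p = 0.384, 0.189 and 0.133). Acadl and Acot13 also lost the call of edgeR when certain single libraries were left out.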

How the results depend on the processing

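For KO against WT in untreated libraries, 406 of 416 member values under other settings kept direction and call, 8 lost the call and 2 turned sign; after CMC 391 of 416 did, 16 lost the call, 5 gained it and 4 turned sign. Leaving out each library gave 27 to 28 members lower and 3 higher untreated, and 22 to 25 lower and 2 to 3 higher after CMC. Values that turned sign were all uncalled: untreated Cpt1b at -0.028 without KO replicate 1 and -0.014 without WT replicate 3 (up to 0.083 without KO replicate 2); after CMC Acadl at 0.008 without KO replicate 3, 0.055 without WT replicate 3 (down to -0.148 without WT replicate 2) and 0.016 with nuclear totals in place of TMM, and Cpt1a at 0.005 with nuclear totals; and the difference for Acot1 at -0.295 without KO CMC replicate 1 (up to 1.601 without KO CMC replicate 2). Nuclear totals moved the median of all untreated genes by 0.12, and 26 members fell. DESeq2 called 26 lower and 3 higher untreated and 23 and 2 after CMC, with 5342 genes in place of 7047 untreated. For CMC against untreated in WT, where 4 members were called, DESeq2 called 0, no filter 7 and leaving out a library 0 to 11; the genes called by DESeq2 were 72 of all tested in place of 270, and 506 in place of 1451 in KO. For the difference, where 3 were called, DESeq2 called 0 and leaving out a library gave 2 to 10, and all genes called were 29 in place of 188. The share of Ucp2 differed by 34.6 points with no division by length and 41.5 after CMC, that of Acot1 by -14.3 and -5.97, and that of Cpt1a by 4.39 after CMC; the causes were not tested.

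Whether equal replicate numbers mark the same heart is not stated in the labels, and they were not taken to pair the libraries: same-numbered libraries correlated at -0.24 to 0.14 in their deviations from the group means, which does not show that pairing is absent. With a replicate block 28 members fell and 3 rose untreated, 26 fell and 3 rose after CMC (Acot1 passed, log2 -0.92), 4 passed in WT, 12 in KO and 3 in the difference. Counts of Acot1, 3 to 30 per library, limit what can be said of it.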
